A study of Gallus gallus with 54 samples.

Results

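The genes described here are those of the cyclic AMP (cAMP) signalling machinery in the chicken ovarian follicle. The families were chosen with earlier results of these data known, and their genes were then taken by symbol, each with a single locus. They are adenylyl cyclases (ADCY), phosphodiesterases (PDE), the subunits of protein kinase A (PRKA, here PKA), A-kinase anchoring proteins (AKAP) and regulators of G-protein signalling (RGS). The rule found 70 genes among 26619 in the tables, of which 25257 had a symbol and one locus. They comprised 8 ADCY, 23 PDE, 6 PKA, 12 AKAP and 21 RGS genes, and PDE4DIP came in by its symbol although it encodes a centrosomal scaffold and not a phosphodiesterase. A mean of at least 1 FPKM (fragments per kilobase of transcript scaled to the mapped fragments of a library, a unit that allows levels of different genes to be set side by side) was reached in at least 1 group by 57 members, and 13 stayed below it in every group: ADCY1, ADCY8, ADCY10, AKAP5, AKAP6, AKAP14, PDE4A, PDE6H, PDE8B, PDE11A, RGS17, RGS20 and RGS21.

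In the follicle, the gonadotrophin receptors couple through the stimulatory G protein to adenylyl cyclases, which make cAMP. Phosphodiesterases break cAMP or cGMP down, PKA is a tetramer of regulatory and catalytic subunits whose catalytic subunits are released by cAMP, AKAPs tether PKA to sites in the cell, and RGS proteins speed up GTP hydrolysis on G-protein alpha subunits, mostly of the inhibitory and q classes. Granulosa cells (GCs) line the inside of the follicle wall and theca cells (TCs) with their vessels and smooth muscle form its outer part; in the hen, the largest yolky follicle (F1) is the next to ovulate, F5 is the fifth largest, and small yellow follicles of 6 mm have not yet been selected.

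RNA from the GC and TC layers of 6 mm, F5 and F1 follicles was sequenced from White Leghorn hens of 35 to 40 weeks. Hens received water (NC), 15 mg of bicalutamide (bic, an antagonist of the androgen receptor) or 100 mg of mestanolone (mes, an anabolic androgenic steroid that activates it) in 4 days of feeding, with tissue taken following 1 further day without drug. The paper states that the drugs raised the number of preovulatory follicles, and that those left without a label were called F1. It reports several F1 follicles in the 100 mg mes group. An F1 sample of a drug-fed hen may therefore not be its largest follicle. The 54 libraries formed 18 groups of 3. The study's sample list placed several libraries of one group under the same hen: all 3 bic F1 GC libraries came from hen 1, bic F1 TC libraries 1 and 2 from hen 1, and NC F1 GC libraries 1 and 2 from hen 2. Counts of 5 such pairs differed less than those of other pairs (chi-square per degree of freedom 4.69 to 5.78 against 11.1 to 62.5 in the other 49 pairs). The deposited counts are derived from coverage and are not fragments. These values therefore cannot show whether the 5 pairs differed by more than sampling noise. As they came from 1 animal and shared a library number, same-hen libraries of a group were counted as 1 sample, which left 50 samples. The NC F1 GC group therefore rested on 2 hens and the bic F1 GC group on 1 hen.

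Total counts per library ranged from 33310408 to 64933667, with a median of 46846094. The layers were checked against marker lists: the mean level of 8 theca genes was 606.6 to 1046 FPKM in TC libraries against a median of 2.29 FPKM in GC libraries, and the mean of 5 granulosa genes had a median of 219 FPKM in GCs against 16.2 FPKM in TCs. No theca or granulosa marker was at 0 throughout a layer. Some libraries stood apart. The GC library of bic F5 hen 2 held 933 FPKM of theca markers (2.29 and 1.56 in the other hens) and correlated best with 6 mm NC TCs, and the GC library of bic 6 mm hen 2 correlated best with bic F1 GCs. Theca markers averaged 204 and 114 FPKM in the 6 mm NC GCs of hens 1 and 3 (3.44 in hen 2), and smooth muscle markers 179 and 311 FPKM (9.40 in hen 2). In the other direction, granulosa markers averaged 90.3 FPKM in the F1 NC TCs of hen 1 (8.45 and 7.68 in hens 2 and 3) and 70.2 and 139 FPKM in the F5 NC TCs of hens 2 and 3 (9.96 in hen 1). Among bic hens, theca markers averaged 184.9 FPKM and smooth muscle markers 112.5 FPKM in the 6 mm GCs of hen 1 (1.75 and 2.20 in hen 3). Granulosa markers averaged 154.3 FPKM in the F5 TCs of bic hen 1 (10.1 and 7.83 in hens 2 and 3). In bulk layers, fewer cells of a type and less RNA per cell cannot be told apart.

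In the GCs of NC hens, 14 members rose and 9 fell of 60 tested between F5 and F1 (23 calls, where 29.6% of all genes were called, 14.0% upward and 15.5% downward). The members' median log2 fold change was 0.31, against -0.15 for all genes. RGS genes moved furthest in both directions (7 up and 5 down of 18 tested), all 6 PDE genes that changed rose, and among the cyclases ADCY3 fell while ADCY5 rose. Of the 23 calls, 21 were also called with the hen as a block, which called 23 members in all; PRKACA and RGS14 were lost. In that fit only hens 2 and 3 carried both stages.

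RGS16 and RGS2, both R4-class RGS proteins, reached the highest levels of any member in F1 GCs. RGS16 was at 2.42, 0.361 and 1.02 FPKM in the GCs of the 3 NC hens at F5 and at 2261 and 2279 FPKM in hens 2 and 3 at F1 (log2 fold change 11.21 ± 0.99 (SE), adjusted p = 0.00166). At 6 mm its level was 23.1, 19.1 and 19.2 FPKM, so that F5 hens lay below and F1 hens above every 6 mm hen. The 2 libraries of hen 2 at F1 read 2156 and 2367 FPKM. RGS2, which acts mainly on the q class of G proteins, stood at 1.32, 0.810 and 1.53 FPKM at F5 and 1013 and 993 FPKM at F1 (log2 fold change 10.14 ± 0.40 (SE), adjusted p = 0.000599). Its 6 mm values of 15.1, 0.199 and 21.9 FPKM were spread, and the 2 higher values belonged to the hens with theca and smooth muscle markers; the part of those cells in the values was not tested. Summed over 21 genes, RGS transcripts came to 3333 FPKM in F1 GCs against 100.1 FPKM at F5, and RGS16 made up 68.1% and RGS2 30.1% of that F1 sum.

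**Figure D1:**
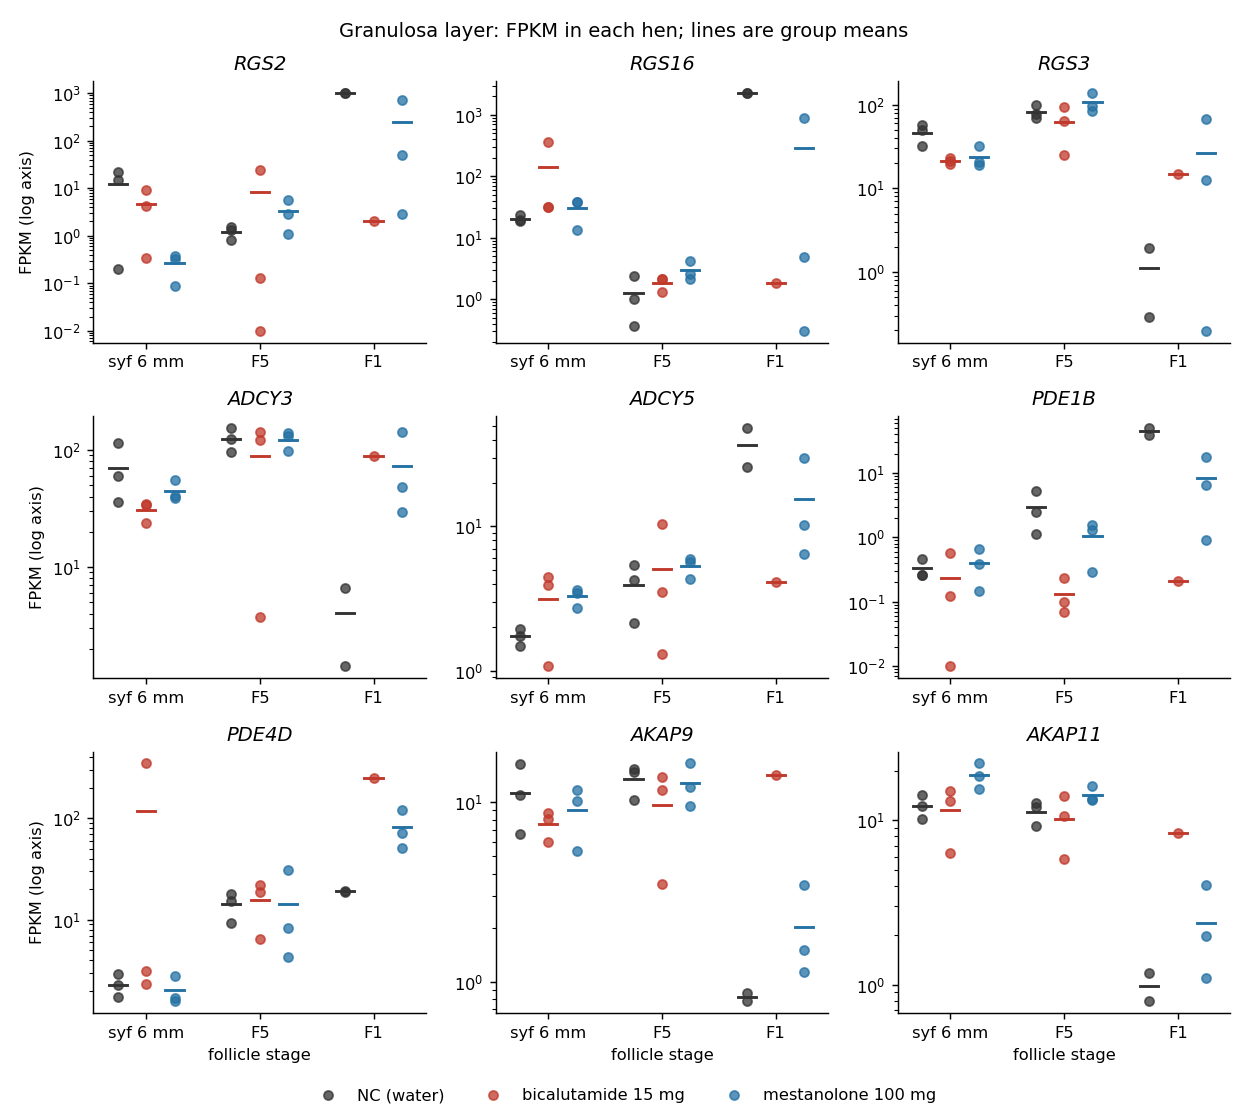
FPKM (log axis, values under 0.01 drawn at 0.01) of 9 members in GCs, 1 panel per gene, with 1 point per hen at 6 mm, F5 and F1 for NC, bic and mes. NC F1 hens sit near 1000 FPKM for RGS2 and well above that for RGS16, while the bic F1 hen stays near the F5 values of both.

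Of the remaining R4 genes, RGS8 rose from 0.145, 0.0758 and 0.211 FPKM at F5 to 27.2 and 24.8 FPKM at F1 (log2 fold change 7.95 ± 0.48 (SE), adjusted p = 0.000914). RGS1, RGS4 and RGS13 also passed the test upward, at low level: RGS1 had 0 counts in all 3 F5 libraries and 3.25 and 1.64 FPKM at F1, RGS4 had 0, 0 and 0.0735 then 3.44 and 6.40 FPKM, and RGS13 had 0, 0.0582 and 0 then 2.53 and 1.53 FPKM. RGS11 of the R7 class, whose members pair with the G-beta 5 subunit, went from 1.01, 0.906 and 0.266 to 22.6 and 19.9 FPKM (log2 fold change 5.32 ± 0.60 (SE), adjusted p = 0.00286).

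RGS3 ran the opposite way. It was the most abundant RGS gene of NC GCs at 6 mm and F5, with 49.5, 57.1 and 31.9 FPKM and 98.3, 78.0 and 68.5 FPKM, and it was down at 0.294 and 1.94 FPKM in the F1 hens (log2 fold change -5.52 ± 0.56 (SE), adjusted p = 0.00221). All 3 R12-class genes fell: RGS12 from 2.01, 2.81 and 2.48 to 0.0391 and 0.0179 FPKM (log2 fold change -5.63 ± 0.54 (SE), adjusted p = 0.00191), RGS10 from 2.40, 4.08 and 3.98 to 0.412 and 0.341 FPKM (log2 fold change -2.50) and RGS14 from 1.27, 0.897 and 1.01 to 0.175 and 0.195 FPKM (log2 fold change -1.96). The RGS14 call was held in 0 of 5 fits that left out 1 hen and was lost with the hen as a block. RGS19 of the RZ class fell as well, by 3.73 on the log2 scale. No F1 hen overlapped the F5 hens in any of these RGS genes. They were picked by the test on the same hens, and the share of all genes without overlap was not determined.

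Of the 70 members, 12 lie on chromosome 8 of Gallus_gallus-5.0, and 9 of them are RGS genes in a pair of runs. RGS2 (chr8:3575626-3578451), RGS13 (chr8:3606083-3612365), RGS1 (chr8:3620491-3624129), RGS21 (chr8:3649013-3653632), RGS18 (chr8:3658811-3666433), RGS4 (chr8:3687052-3692407) and RGS5 (chr8:3693078-3700186) follow each other with gaps of 0.671 to 27.6 kb, and RGS8 (chr8:5592462-5611218) lies 3.06 kb from RGS16 (chr8:5614273-5619060). Between F5 and F1 in GCs, 6 of these 9 rose (RGS1, RGS2, RGS4, RGS8, RGS13 and RGS16) and none fell. They are among the member calls given above with the upward share of all genes. RGS21 had 0 counts in NC GCs. RGS5, which marks pericytes and vascular smooth muscle in mammals, was at 0.217, 1.03 and 0.586 FPKM at F5 and 1.16 and 0 FPKM at F1, and RGS18, a gene of platelets and blood cells in mammals, read 0, 0 and 0 and 0.0962 and 0 FPKM. The genes of the run from RGS2 to RGS5 thus did not all rise in GCs, where RGS5 and RGS18 stayed at 1.16 FPKM or less. In NC TCs at F1, RGS5 read 55.4, 81.7 and 100.2 FPKM. There RGS16, of the other run, was at 0.507 and 2.26 FPKM in hens 2 and 3 and far higher in hen 1, as described below.

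**Figure D2:**
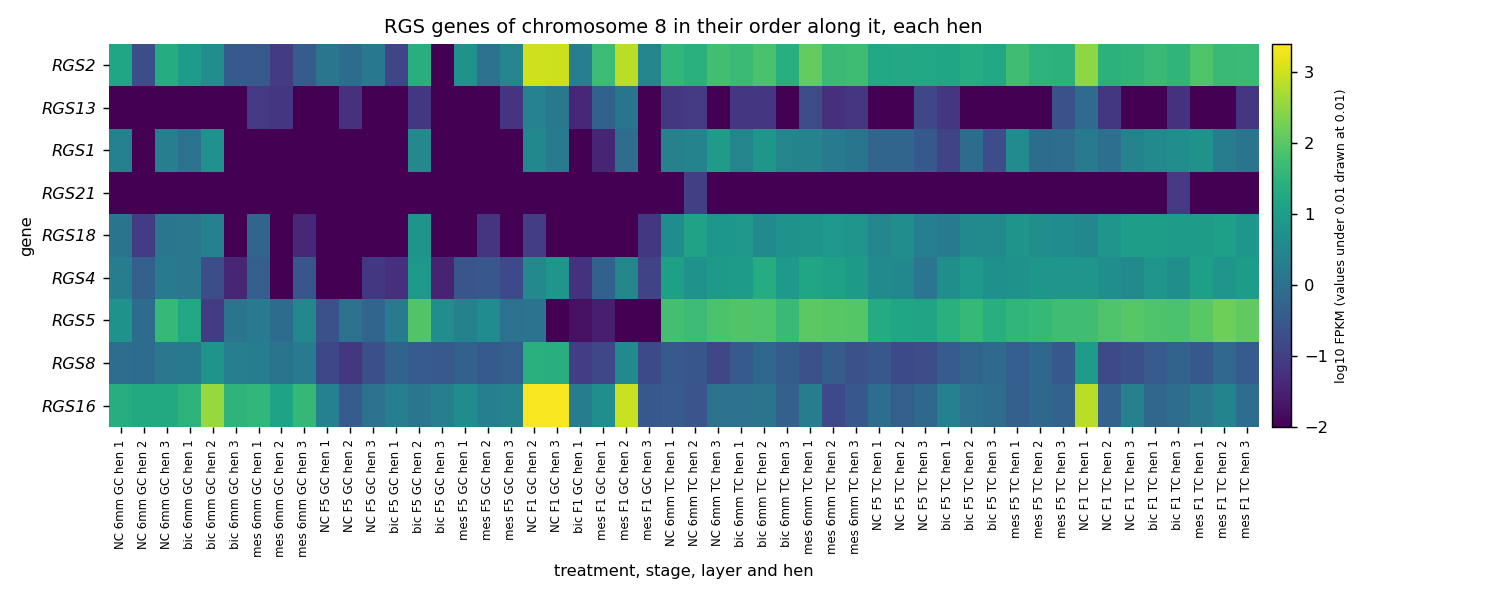
Heat map of log10 FPKM of the 9 RGS genes on chromosome 8 (rows, in chromosomal order) in 50 hen-level samples (columns, by layer, stage and treatment). RGS2, RGS8 and RGS16 are bright in the NC F1 GCs and in 1 mes F1 GC sample, and RGS5 and RGS18 are brighter in TCs than in GCs.

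Among the 8 cyclase genes, ADCY3, ADCY5 and ADCY9 carried most of the level in GCs. ADCY3 (chr3:105889920-105903214), an isoform best known from olfactory neurons, fell from 154, 97.1 and 125 FPKM at F5 to 1.43 and 6.69 FPKM at F1 (log2 fold change -4.47 ± 0.76 (SE), adjusted p = 0.00906). ADCY5 (chr7:27099958-27295391), which the inhibitory G proteins and calcium restrain, rose from 2.14, 4.25 and 5.37 to 48.0 and 25.6 FPKM (log2 fold change 3.71 ± 0.48 (SE), adjusted p = 0.00417). ADCY9, an isoform little affected by forskolin, was at 16.4, 31.2 and 37.4 FPKM at F5 and 9.57 and 31.8 FPKM at F1, with overlapping values and no call. As a share of the summed ADCY FPKM, ADCY3 took 65.3%, 79.0% and 6.42% at 6 mm, F5 and F1, ADCY5 1.83%, 2.54% and 60.6%, and ADCY9 30.6%, 18.4% and 32.9%. The summed level was 104.0 ± 47.1 FPKM at 6 mm (SD, n = 3), 158 ± 21.8 FPKM at F5 (SD, n = 3) and 61.6 ± 3.59 FPKM at F1 (SD, n = 2).

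ADCY3 shares 284 exonic bases with CENPO, a kinetochore gene on the opposite strand, and whether the library kit marked strand is not given in the sources used here. CENPO read 1010.0, 1244 and 51.4 FPKM at 6 mm, F5 and F1 in NC GCs, so its reads cannot be told apart from those of ADCY3 in the shared exon. Over the 22 of 23 ADCY3 exons free of overlap, coverage scaled to the total counts was 3.01, 5.40 and 0.164 in the same groups, which is the same order.

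Phosphodiesterases that hydrolyse cAMP, alone or with cGMP, summed to 31.2 ± 3.20 FPKM at 6 mm (SD, n = 3), 43.8 ± 7.10 FPKM at F5 (SD, n = 3) and 197 ± 55.0 FPKM at F1 (SD, n = 2). The calcium/calmodulin-stimulated PDE1B rose from 5.30, 2.48 and 1.13 to 49.6 and 39.1 FPKM between F5 and F1 (log2 fold change 4.38 ± 0.65 (SE), adjusted p = 0.00600). Its relative PDE1A went from 1.06, 0.444 and 0.995 to 5.86 and 4.40 FPKM (log2 fold change 3.13). PDE3B, the isoform that cGMP inhibits and that is known from adipocytes in mammals, went from 0.296, 0.667 and 0.143 to 12.3 and 9.80 FPKM (log2 fold change 5.36 ± 0.67 (SE), adjusted p = 0.00382). The cAMP-specific PDE7B and PDE8A, which resist the common inhibitor rolipram, reached 39.6 and 24.2 and 69.4 and 41.0 FPKM at F1 (log2 fold changes 2.86 and 2.57). PDE10A, a dual-substrate enzyme of the striatum in mammals, went from 1.47, 1.57 and 2.46 to 36.5 and 19.1 FPKM (log2 fold change 4.39). In each of these 6 genes both F1 hens lay above all 3 F5 hens. As with the RGS genes, the test on the same hens had picked them, and the share of all genes so separated was not determined.

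PDE4D, the cAMP-specific isoform that gonadotrophins induce in rat granulosa cells, did not pass the test at this step: 9.20, 15.4 and 18.0 FPKM at F5 against 19.4 and 18.7 FPKM at F1. It had risen earlier, from 2.90, 1.73 and 2.28 FPKM at 6 mm (F5 minus 6 mm, log2 fold change 2.79 ± 0.30 (SE), adjusted p = 0.0112), a call held in 3 of 6 fits that left out 1 hen and lost with hen 2 as the only 6 mm sample. PDE4D made up 7.30%, 31.9% and 10.0% of the cAMP-hydrolysing PDE level at 6 mm, F5 and F1, PDE8A 43.6%, 29.3% and 27.6%, and PDE1B 1.09%, 7.42% and 22.9%. PDE1B shares 981 exonic bases on the same strand with LOC107049955, which was at 0 in all NC groups. Among the genes grouped as cGMP-specific, none of 6 tested changed from F5 to F1. They included PDE5A, the target of sildenafil, at 15.2, 25.2 and 27.7 then 39.5 and 18.5 FPKM. PDE6D, grouped with them by its symbol although it is a carrier of prenylated proteins, was at 40.9, 20.5 and 28.6 then 6.79 and 13.4 FPKM.

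**Figure D3:**
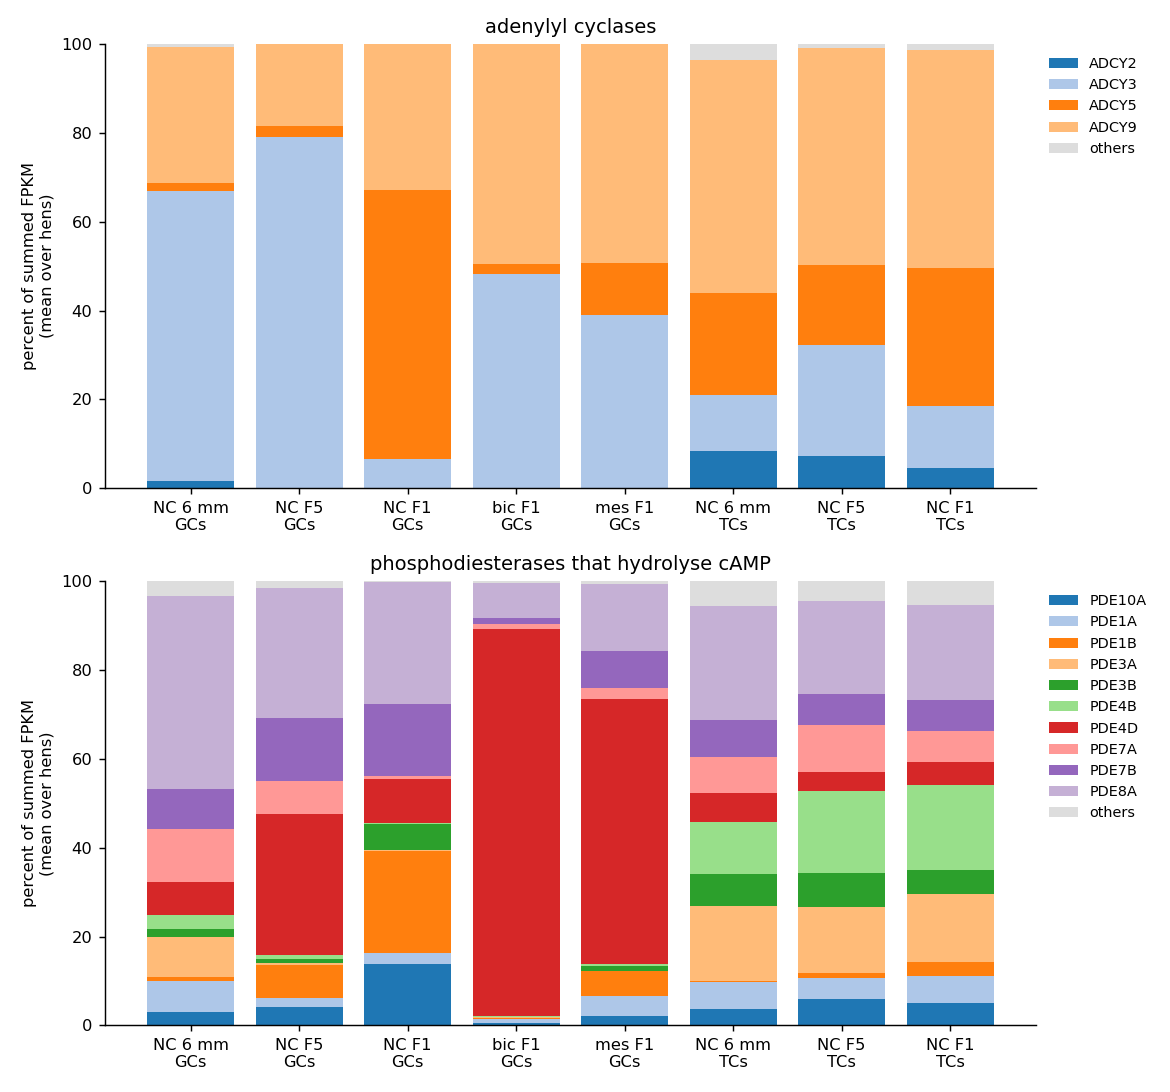
Stacked bars of the percent of summed FPKM taken by each gene, for adenylyl cyclases and for PDEs that hydrolyse cAMP, as means over hens in the 6 NC groups and in the bic and mes F1 GCs. ADCY5 takes 60.6% of the cyclase level in NC F1 GCs and 2.21% in the bic F1 GCs, where PDE4D takes 87.1% of the PDE level.

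Of the 6 PKA subunit genes tested, 1 changed from F5 to F1. The catalytic pool was nearly all PRKACB, with 90.3%, 95.5% and 99.2% of the catalytic level in NC GCs, at 20.8, 24.4 and 26.5 FPKM at F5 and 15.7 and 13.0 FPKM at F1. PRKACA fell from 1.16, 0.931 and 1.29 to 0.145 and 0.0851 FPKM (log2 fold change -2.87 ± 0.63 (SE), adjusted p = 0.0189), at a level far below that of PRKACB, a call held in 3 of 5 fits that left out 1 hen and lost with the hen as a block. None of the 4 regulatory subunits passed from F5 to F1. PRKAR1A, the type I subunit lost in Carney complex in humans, was the most abundant, at 42.9, 74.8 and 73.5 FPKM and 69.8 and 57.4 FPKM, or 73.5% and 68.7% of the regulatory level. PRKAR2A read 9.42, 20.7 and 17.5 then 24.5 and 26.0 FPKM.

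In the anchoring proteins, 2 of 11 tested fell from F5 to F1 and none rose. AKAP9 (chr2:22422267-22521444), a large scaffold of the centrosome and Golgi, fell from 14.7, 10.3 and 15.3 to 0.864 and 0.777 FPKM (log2 fold change -3.55 ± 0.29 (SE), adjusted p = 0.00147). AKAP11, which binds PKA and glycogen synthase kinase 3, fell from 9.22, 11.9 and 12.6 to 1.18 and 0.791 FPKM (log2 fold change -3.03 ± 0.31 (SE), adjusted p = 0.00230). The most abundant AKAP was the mitochondrial anchor AKAP1, at 60.6, 63.3 and 62.4 FPKM at 6 mm, 23.8, 31.3 and 36.6 at F5 and 22.4 and 27.2 at F1.

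The rest of the pathway was followed through 29 genes with one locus, from receptors and G proteins to the cAMP-responsive transcription factors. This list was drawn up with earlier results of these data known. In the same comparison 8 of 23 tested rose and 3 fell. CREM, a cAMP-responsive transcription factor whose short form is itself induced by cAMP, went from 3.76, 4.78 and 4.68 to 189.6 and 145 FPKM (log2 fold change 5.43 ± 0.25 (SE), adjusted p = 0.000709). VIPR1, a receptor for vasoactive intestinal peptide, went from 0.153, 0.256 and 0.149 to 181 and 96.5 FPKM (log2 fold change 9.77), and LHCGR, the receptor for luteinizing hormone, from 32.7, 73.8 and 73.8 to 257 and 346 FPKM (log2 fold change 2.80). The inhibitory G-protein subunits GNAI2 and GNAI3 rose, by 1.38 and 1.79 on the log2 scale, and the stimulatory subunit GNAS fell by 1.68 from 64.4, 60.2 and 64.0 to 16.0 and 12.3 FPKM. RAPGEF4, an exchange factor that cAMP activates without PKA, fell from 2.69, 3.12 and 3.00 to 0.0508 and 0.0478 FPKM, whereas its relative RAPGEF3 did not pass (73.6, 61.1 and 49.3 then 47.9 and 41.1 FPKM).

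The earlier step in GCs, from 6 mm to F5, gave 10 members of 61 tested, 4 higher and 6 lower, where 9.11% of all genes were called (4.42% upward and 4.69% downward). Besides PDE4D, the risers were PDE1B (log2 fold change 3.47), PDE7B (1.44) and PRKACB (0.82). RGS16, RGS8, RGS7 and RGS11 fell, RGS7 from 1.54, 2.43 and 1.43 to 0.0165, 0.0130 and 0 FPKM, together with PDE3A and PDE6D. PDE3A, the isoform that oocytes use in mammals, read 2.77, 1.19 and 4.67 FPKM at 6 mm and 0.299, 0.134 and 0.230 FPKM at F5. Its call was held in 1 of 6 fits that left out 1 hen. Oocyte markers averaged 4.93, 6.73 and 27.7 FPKM in the same 6 mm hens and 0.460, 0.128 and 0.0471 FPKM in the F5 hens. The higher PDE3A values at 6 mm belonged to hens 1 and 3, which held theca and smooth muscle markers. The part of oocyte or theca cells in these values was not tested. PDE6D fell from 102, 76.4 and 109 to 40.9, 20.5 and 28.6 FPKM. This count depended on the 6 mm libraries: it was 20 without 6 mm hen 2, 1 without hen 1, 0 without hen 3, and 0 with hen 2, the hen without theca markers, as the only 6 mm sample. Leaving out F5 hens gave 5 calls without hen 1 and 0 without hen 2 or hen 3.

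From 6 mm to F1, 17 members rose and 13 fell of 65 tested (29.0% of all genes were called, 15.3% upward and 13.7% downward). Among the risers were RGS16 (log2 fold change 7.66 ± 0.35 (SE), adjusted p = 0.00248), PDE1B (7.92), RGS8 (5.58), ADCY5 (5.31), PDE7B (4.39) and PDE4D (3.70). PDE6D fell by 2.39 and RGS3 by 4.39 on the log2 scale, while PRKAR1A and PRKAR2A rose by 1.46 and 2.15. The 30 calls became 0 with the hen as a block, where 2 hens carried both stages, and 15 with 6 mm hen 2 as the only 6 mm sample, 14 of them among the 30. Without single hens the count lay between 12 and 28, and it was 16 or 17 without 6 mm hen 1 or 3 and 14 or 12 without F1 hen 2 or 3.

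The same stages were compared in the TCs of NC hens. From 6 mm to F5, 2 members rose and 9 fell of 63 tested (7.63% of all genes were called, 4.07% upward and 3.56% downward). RGS5 fell from 60.7, 49.4 and 75.1 to 20.5, 15.4 and 14.4 FPKM (log2 fold change -1.74 ± 0.20 (SE), adjusted p = 0.0316), PDE9A, a cGMP-specific enzyme of high affinity, from 9.57, 8.78 and 7.92 to 4.33, 3.05 and 2.76 FPKM (log2 fold change -1.19), and PDE5A from 12.4, 15.4 and 19.3 to 6.93, 4.26 and 5.86 FPKM (log2 fold change -1.32). PDE4D fell by 1.04 on the log2 scale, from 3.36, 4.75 and 4.09 to 1.66, 1.45 and 2.27 FPKM, the step at which it rose in GCs. AKAP7, an anchor of ion channels at the membrane, rose from 9.53, 8.85 and 7.45 to 12.1, 14.0 and 12.8 FPKM, and PDE12, a mitochondrial phosphodiesterase that acts on RNA, from 6.07, 8.51 and 7.52 to 10.3, 11.6 and 10.5 FPKM. ADCY7, PDE8A, RGS1, RGS10 and AKAP11 were the other calls downward. With the hen as a block 0 of these 11 calls held, and the count was 4 without 6 mm hen 1, 0 without 6 mm hen 2 or 3 or F5 hen 2 or 3, and 20 without F5 hen 1. Granulosa markers averaged 9.96, 70.2 and 139 FPKM in F5 TC hens 1, 2 and 3, and 55.3, 49.6 and 67.7 FPKM in the 6 mm TC hens. The part of granulosa cells in these counts was not tested.

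From F5 to F1, 5 members rose and 0 fell of 62 tested in TCs (6.20% of all genes were called, 3.37% upward and 2.83% downward; 0 members with the hen as a block). RGS5 returned from 20.5, 15.4 and 14.4 to 55.4, 81.7 and 100.2 FPKM (log2 fold change 2.35 ± 0.24 (SE), adjusted p = 0.0139). RGS11 read 2.64, 2.38 and 0.781 then 10.8, 7.75 and 12.2 FPKM (log2 fold change 2.53), AKAP7 12.1, 14.0 and 12.8 then 23.2, 19.4 and 28.3 FPKM (0.99), and the others were AKAP2 (0.74) and AKAP13 (0.59). Leaving out single hens gave 4 calls without F1 hen 1, 2 without F1 hen 2, 1 without F1 hen 3 or F5 hen 1, and 0 without F5 hen 2 or 3. F5 hens 2 and 3 and F1 hen 1 held the granulosa markers given above, whose part was not tested. DESeq2 called 11 members here, and edgeR gave 20 members an unadjusted p under 0.05. The shares of all genes for both counts are not given here.

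Over the whole span from 6 mm to F1 in TCs, 4 members rose and 5 fell of 62 tested (18.4% of all genes were called, 8.10% upward and 10.3% downward). RGS22, found mostly in testis in mammals, fell from 3.89, 4.02 and 3.24 to 0.479, 0.774 and 0.806 FPKM (log2 fold change -2.20 ± 0.23 (SE), adjusted p = 0.00585), AKAP7 rose by 1.69 and RGS11 by 1.98 on the log2 scale, and PDE9A fell by 1.40. AKAP9 fell from 1.97, 5.64 and 6.44 to 0.726, 0.681 and 0.967 FPKM and AKAP11 by 1.85 on the log2 scale, as they did in GCs. Members' counts without single hens were 4 without 6 mm hen 2 or 3, 5 without F1 hen 2, 14 without F1 hen 3 and 9 or 10 without either hen 1.

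RGS16 in F1 TCs rested on 1 hen: 698, 0.507 and 2.26 FPKM in hens 1 to 3, against 0.897, 0.430 and 0.628 FPKM at F5 (log2 fold change 8.65, not called). The same hen 1 read above the other F1 TC hens for RGS2 (308, 29.6 and 31.9 FPKM), RGS8 (9.01, 0.159 and 0.209 FPKM), PDE1B (11.8, 0.0501 and 0.0237 FPKM) and PDE4D (13.7, 0.767 and 1.57 FPKM), and its granulosa markers averaged 90.3 FPKM. Without this hen the log2 fold change of RGS16 was 1.17. The part of granulosa cells in these values was not tested.

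**Figure D4:**
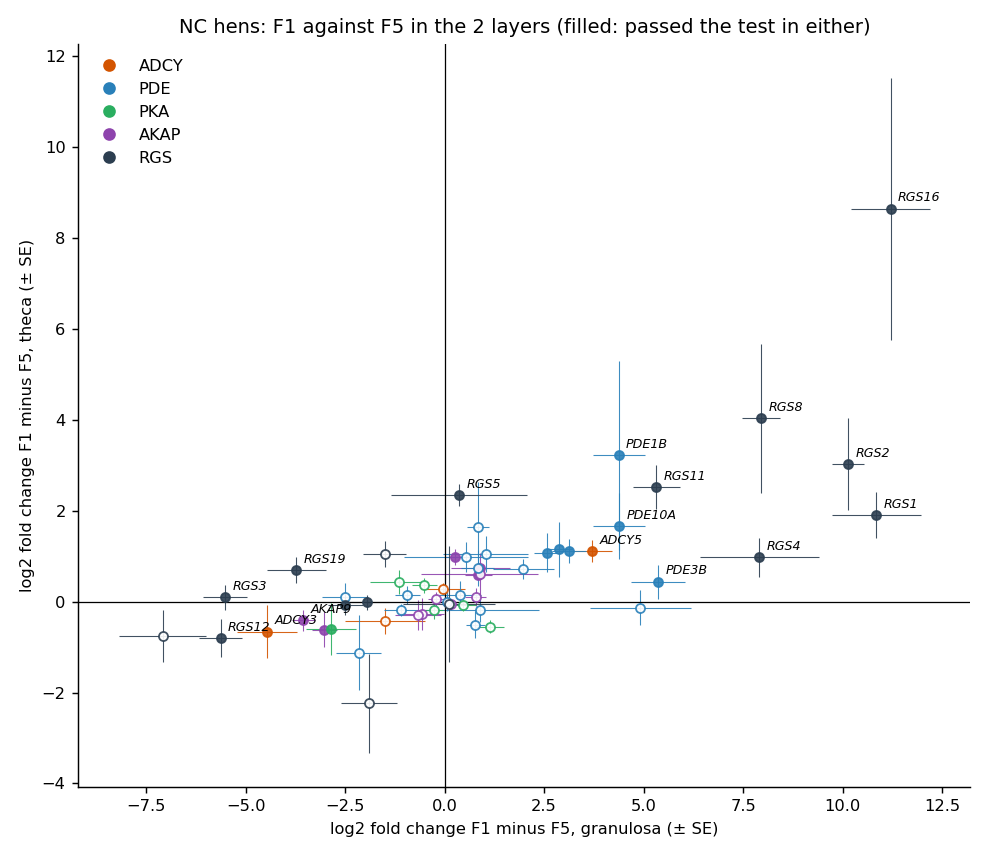
Log2 fold change from F5 to F1 in NC GCs (x axis) against that in NC TCs (y axis) for the members tested in both, with bars of 1 SE. RGS2, RGS8 and RGS16 lie far to the right and RGS3, RGS12 and ADCY3 to the left, while RGS5 and RGS11 lie above 2 on the TC axis. RGS1 had 0 counts in F5 GCs, so its place on the x axis depends on the prior count.

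Set against each other within a stage, TCs and GCs of NC hens differed in 28 members of 65 tested at 6 mm (18 higher in TCs and 10 lower, with 27.0% of all genes called, 11.0% higher and 16.0% lower), in 32 of 63 at F5 (21 and 11, with 36.0% called, 20.1% and 15.9%) and in 26 of 63 at F1 (18 and 8, with 37.0% called, 21.1% and 15.9%). The members' median log2 difference, TC minus GC, was 0.67, 0.30 and 0.26 at the 3 stages, against -0.06 at 6 mm and 0.19 at F1 for all genes. The median of all genes at F5 is not given here. Altogether 49 members were called at 1 stage or more and 11 at all 3, and the share of all genes was not determined for either count. Of the 11, 7 were higher in TCs each time: ADCY2, PDE1C, PDE3A, PDE4B, PDE9A, PRKAR2B and RGS14. Of 6 fits at 6 mm that left out 1 hen, PDE1C, PDE3A, PDE4B and RGS14 were called in 2, ADCY2 in 3, PDE9A in 4 and PRKAR2B in 6. Of 5 such fits at F1, PDE4B was called in 2, PDE3A in 3 and the others in 5. With the hen as a block PDE4B was lost at 6 mm and F1, and PDE3A at F1. At F5 every fit without 1 hen and the block kept them. ADCY5, PDE3B, PDE7B and PRKAR2A were called at every stage with a change of direction, and PDE6D was lower in TCs at 6 mm and higher at F1. Of 5 fits at F1 that left out 1 hen, ADCY5 and PDE3B were called in 2, PRKAR2A and PDE7B in 1 and PDE6D in 3, and with the hen as a block all of these but PDE7B were lost at F1; PDE7B was lost with the block at 6 mm. The 6 mm GCs of hens 1 and 3 held the theca and smooth muscle markers given above. With GC hen 2 as the only 6 mm GC sample, 32 members were called at 6 mm, 27 higher in TCs and 5 lower, 23 of them among the 28; the part of those cells in the result was not tested.

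PRKAR2B, the regulatory subunit of nerve and fat tissue in mammals, was at 7.26, 5.76 and 8.65, then 9.26, 7.17 and 5.72, then 6.29, 8.84 and 12.6 FPKM in the TC hens at 6 mm, F5 and F1, and never above 2.30 FPKM in a GC hen of the NC group (log2 difference 2.45, 4.50 and 6.04). RGS14, an R12-class protein that also binds Ras, was at 9.73, 13.5 and 14.3 FPKM in F1 TCs and 0.175 and 0.195 FPKM in F1 GCs (log2 difference 5.57 ± 0.29 (SE), adjusted p = 0.00293). AKAP12, a scaffold of the cell cortex known as gravin, read 33.3, 15.9 and 19.5 against 0.248, 0.330 and 0.289 FPKM at F5 (log2 difference 6.25 ± 0.36 (SE), adjusted p = 0.000116) and 13.2, 13.4 and 25.6 against 0.174 and 0.0982 FPKM at F1 (6.52). PDE4B read 9.40, 7.84 and 6.64 FPKM in TCs and 0.353, 0.522 and 0.337 FPKM in GCs at F5 (log2 difference 4.52), and ADCY2, a cyclase that G-protein beta-gamma subunits stimulate, 2.44, 2.68 and 3.57 FPKM and 0.0129 and 0.04998 FPKM at F1 (6.07).

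Several members stood higher in GCs. ADCY3 was lower in TCs at 6 mm, at 6.42, 5.84 and 8.55 against 60.5, 115 and 35.8 FPKM (log2 difference -3.30 ± 0.48 (SE), adjusted p = 0.00667), and at F5 (-3.04), and it was not called at F1, where GCs had 1.43 and 6.69 and TCs 7.75, 9.36 and 10.6 FPKM. AKAP9 (-3.59), PDE4D (-2.96), RGS12 (-2.56) and AKAP11 (-2.35) were lower in TCs at F5. RGS16 was lower in TCs at 6 mm, 0.352, 0.267 and 1.03 FPKM against 23.1, 19.1 and 19.2 FPKM (log2 difference -5.16 ± 0.58 (SE), adjusted p = 0.00366). ADCY5 was higher in TCs at 6 mm (2.89 ± 0.19 (SE), adjusted p = 0.00145) and F5 (1.34) and lower at F1 (-1.29), with 14.3, 12.1 and 11.7 FPKM and 23.3, 18.6 and 18.4 FPKM in TCs at the first and last stage.

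**Figure D5:**
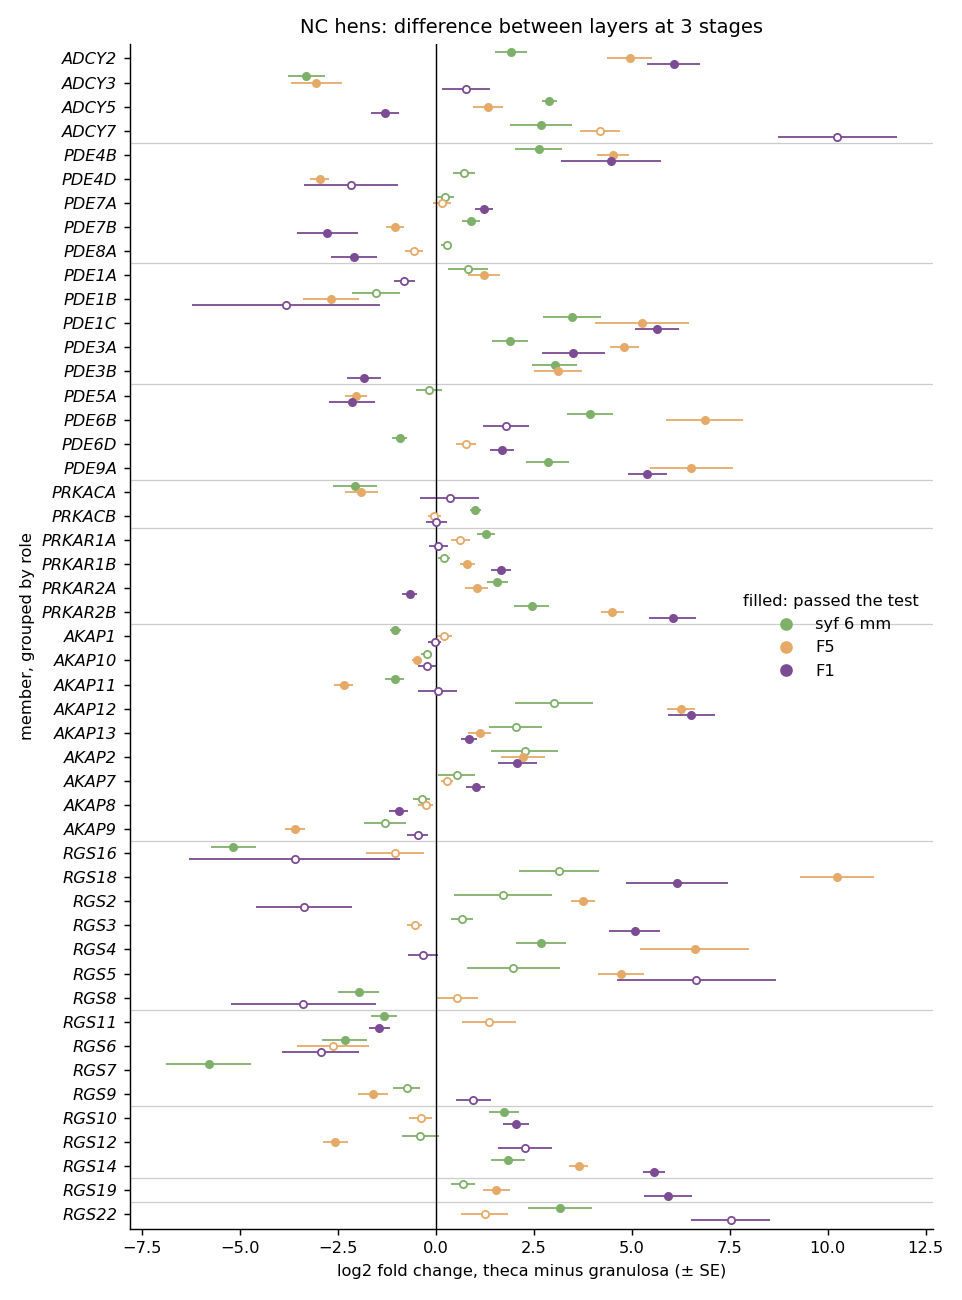
Log2 difference between TCs and GCs of NC hens (TC minus GC, with bars of 1 SE) for the 49 members called at 1 stage or more, at 6 mm, F5 and F1, where filled points passed the test. AKAP12, PRKAR2B and RGS14 lie far to the right of 0 at F5 and F1, and ADCY5 crosses 0 between F5 and F1. ADCY7 at F1 and RGS18 at F5 had 0 counts in GCs, so their points depend on the prior count.

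At F1 the layer difference depended on hen 1 of the TC group. Without it 32 members were called (17 higher and 15 lower in TCs), and RGS16 (log2 difference -11.17), RGS2 (-5.54), RGS8 (-7.64), PDE1B (-10.69) and PDE10A (-4.21) were among those lower in TCs; with it none of these 5 passed. Without hen 2 or hen 3 of the TC group the count was 12 or 11, and with the hen as a block it was 16, of which 10 were among the 26. At 6 mm the count was 8, 9 and 10 without TC hen 1, 2 and 3. At F5 it was 21 without TC hen 2 and 24 to 34 without any other hen. F5 TC hens 2 and 3 held the granulosa markers given above, whose part was not tested.

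The change from 6 mm to F1 was then compared between layers in one model. It differed in 21 of 68 members tested, 13 with a more positive change in TCs and 8 with a more negative one, where 20.0% of all genes were called (12.5% and 7.50%). With the hen as a block 17 were called, 16 of them among the 21; ADCY7, PDE9A, PRKAR1A, RGS12 and RGS22 were lost. ADCY5 changed by 4.26 less on the log2 scale in TCs than in GCs (difference -4.26 ± 0.40 (SE), adjusted p = 0.000428), and PDE3B, PDE7B, PDE8A, RGS4, PRKAR2A, PRKAR1A and PRKACB shared that sign. RGS3 (4.32), ADCY3 (4.00), RGS19 (5.15), RGS14 (3.65), PDE6D (2.52) and PRKAR2B (3.51) had the other sign. For RGS16 and RGS2 the difference between layers was 1.5 and -5.15 on the log2 scale and did not pass (adjusted p = 0.741 and 0.0892). The RGS16 level in F1 TCs rested on hen 1, as described above, whose granulosa markers averaged 90.3 FPKM. Without that TC hen 28 members were called, 19 of them among the 21.

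The 12 comparisons of bic or mes with NC within a layer and stage gave 0 member calls with edgeR, where 0.0296% (0.0118% upward, 0.0177% downward) of all genes were called for bic and 0.0354% (0.0236% and 0.0118%) for mes in 6 mm TCs, 0.0122% (0.00608% each way) for mes in F5 TCs, and 0% in the other 9. Members with an unadjusted p under 0.05 numbered 5 of 66, 6 of 56 and 22 of 63 for bic in GCs at 6 mm, F5 and F1, 24 of 62, 9 of 56 and 16 of 57 for mes in GCs, 0 of 64, 4 of 63 and 7 of 64 for bic in TCs, and 3, 16 and 13 of 63 each for mes in TCs. DESeq2 called more: 20 members for bic (2625 of 16845 genes in all) and 15 for mes (14.3%) in F1 GCs, 18 for mes in 6 mm GCs (14.5%), and 0 to 4 in the others. The shares of all genes with an unadjusted p under 0.05 are not given here, so those member counts do not single out the members. The bic F1 GC group is 1 hen, taken to vary as the other groups do. With the libraries of each group entered as labelled, edgeR called 30 members for bic (45.4% of all genes) and 6 for mes (9.59%) in F1 GCs. These p-values partly measure the spread between libraries of 1 hen, as all 3 bic libraries shared a hen and NC libraries 1 and 2 shared another. The 3 mes libraries came from 3 hens. Leaving out hen 2 of the mes F1 GCs gave 11 calls for bic and 13 for mes, leaving out hen 2 of the 6 mm NC GCs gave 22 for mes at 6 mm, and leaving out hen 1 of the F5 NC TCs gave 1 for mes in F5 TCs. All other omissions of 1 hen left 0 calls. Without 6 mm NC GC hen 2, the NC samples were hens 1 and 3, with 204 and 114 FPKM of theca markers. The shares of all genes called are not given here for the fits without 1 hen, nor for the DESeq2 fits with 0 to 4 calls.

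The values in F1 GCs showed how far apart single hens were. In drug-fed hens the F1 label could also cover follicles other than the largest, as described above. RGS16 read 1.82 FPKM in the bic hen and 4.95, 877 and 0.305 FPKM in the 3 mes hens, beside 2261 and 2279 FPKM in NC. RGS2 read 2.04 FPKM in the bic hen and 51.1, 708 and 2.90 FPKM in mes hens. In both genes mes hen 2 read highest of the treated hens, below both NC hens. ADCY3 ran the other way, at 89.0 FPKM in the bic hen and 48.1, 29.8 and 143 FPKM in mes hens against 1.43 and 6.69 FPKM in NC, and ADCY5 stood at 4.09 FPKM and 10.2, 29.7 and 6.43 FPKM against 48.0 and 25.6 FPKM. RGS3 read 15.0 FPKM in the bic hen and 12.7, 0.198 and 66.9 FPKM in mes hens, where NC hens had 0.294 and 1.94 FPKM.

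PDE4D was higher in the bic hen, at 252 FPKM, and in mes hens, at 122, 50.7 and 71.8 FPKM, than in the NC hens, at 19.4 and 18.7 FPKM; the groups did not overlap, with log2 differences of 3.57 (adjusted p = 0.145) and 1.82 (adjusted p = 0.147) by edgeR. ADCY9 likewise read 91.4 FPKM in bic and 95.3, 55.3 and 90.8 FPKM in mes against 9.57 and 31.8 FPKM. The share of all genes with such a separation was not determined. PDE1B was at 0.209 FPKM in the bic hen and 17.5, 0.898 and 6.47 FPKM in mes hens against 49.6 and 39.1 FPKM in NC. AKAP9 stood at 14.3 FPKM in bic and 3.44, 1.504 and 1.136 FPKM in mes, with NC at 0.864 and 0.777 FPKM, so mes hens lay nearer to NC than the bic hen did.

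Placed on the scale of log2(FPKM + 0.1) between the NC F5 mean and the NC F1 mean, the 23 members called between those stages gave a median position of 0.05 in the bic F1 hen (0 being the F5 mean and 1 the F1 mean), with 21 members nearer to F5 and 2 nearer to F1. The mes F1 hens 1, 2 and 3 had medians of 0.39, 0.81 and 0.14, with 6, 18 and 4 members nearer to F1. Among the F5 samples of both treatments, 5 had 23 of 23 members nearer to F5, and bic hen 2, the library with theca markers, had 17. The members were chosen on the NC hens, the NC hens set the scale, and no test was made of these positions.

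When the stages were compared within mes hens instead (an alternative added after seeing the data), 20 members were called between 6 mm and F5 in GCs (24.6% of all genes), 8 of them among the 10 of the NC hens. Between F5 and F1, 8 were called (18.2% of all genes), 4 of them among the 23, and between 6 mm and F1, 17 (34.9% of all genes), 10 of them among the 30. PDE4D from 6 mm to F5 rose in mes hens as well (log2 fold change 3.00), and AKAP9 (-2.41), AKAP11 (-2.36), PDE1A (3.06) and RGS11 (4.55) were the calls shared from F5 to F1. In TCs, mes hens gave 0, 11 and 18 calls for 6 mm to F5, F5 to F1 and 6 mm to F1 (0.0708%, 15.1% and 23.5% of all genes), of which 0, 3 and 8 were among those of the NC hens.

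Outside F1 GCs, a few members had small unadjusted p-values or a large value in 1 hen. In 6 mm GCs, PDE4D read 3.15, 347 and 2.35 FPKM and RGS16 31.5, 365 and 31.8 FPKM in the 3 bic hens, where hen 2 is the library closest to bic F1 GCs, and NC hens had 2.90, 1.73 and 2.28 and 23.1, 19.1 and 19.2 FPKM. AKAP1 read 119, 104 and 127 FPKM in 6 mm GCs of mes hens against 60.6, 63.3 and 62.4 FPKM (log2 difference 0.93, adjusted p = 0.143). In F5 TCs, RGS5 was at 35.5, 41.9 and 55.8 FPKM in mes hens and 20.5, 15.4 and 14.4 FPKM in NC hens (log2 difference 1.33, adjusted p = 0.328), without overlap. The share of all genes without overlap in that comparison was not determined. In F1 TCs, RGS11 read 3.31 and 1.83 FPKM in the 2 bic hens against 10.8, 7.75 and 12.2 FPKM (log2 difference -2.11, adjusted p = 0.350).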

How the data were processed

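Polyadenylated RNA was sequenced as paired reads of 150 bases. Per the study's methods and the submitters' processing notes, reads were trimmed with Cutadapt, aligned with HISAT2 2.1.0 to Gallus_gallus-5.0, stripped of duplicates with Samtools and assembled with StringTie 1.3.4d. The authors deposited gene counts and, per transcript, FPKM values. The deposited count of a gene equalled its summed coverage times length divided by 75, rounded up, within 1 in all 1437426 values compared, although reads were 150 bases long, so the counts are derived from coverage and their absolute size is not that of fragments. FPKM was summed over a gene's transcripts. Rows that name no gene held 0.0576 to 0.605% of the counts of a library and were left out. The notes also name DESeq2 1.26.0 for the submitters' own comparisons, which were not used here.

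Members were genes whose symbol fits the families named and that had one locus. The members, the list of 32 other pathway genes (29 with one locus; GPR3, POPDC1 and CRTC3 had none under those symbols) and the marker lists were chosen with earlier results of these data known. All members could be named. By the plan, values in every hen went to members with the smallest p, up to 8 in a comparison, and to the most abundant of each role. Such values were also printed for further members and pathway genes that this rule did not choose. Some of these were named for how their values separated the groups. Counts of libraries from the same hen were summed and their FPKM averaged. Each comparison was fitted in R 4.3.3 with edgeR 4.0.16 (TMM, filterByExpr, glmQLFit and glmQLFTest, two-sided) over all genes of the compared groups, with Benjamini-Hochberg adjustment over all genes tested. Genes were called at an adjusted p up to 0.05, provided that a compared group averaged 1 FPKM or more. The SE of a log2 fold change was derived from the test. It is the absolute log2 fold change divided by the square root of the F statistic of glmQLFTest. The bic F1 GC comparison, with 1 hen, was fitted together with NC and mes F1 GCs. The procedure was tested on simulated data.

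A hen number marks the same animal across layers and stages in the study's sample list. Deviations from the group means of same-hen samples correlated with a median r of 0.0798 over 40 pairs (-0.134 to 0.211, over 0.1 in 15 pairs, across 19217 genes), and a fit with the hen as a block was an alternative. Others were RLE size factors, DESeq2 1.42.0, no filter on low counts, a log2 fold change of at least 1.5, all NC libraries in one fit, libraries as labelled, and each hen left out. P-values of the main fits measure the spread between hens of a group. For bic in F1 GCs the lone hen gives no such spread, which was taken from NC and mes F1 GCs. The main fits treated samples of the same hen from different layers or stages as independent. Sequences were not printed, as no reference sequence was used here. Exons of 8 members overlap those of another gene, 3 on the same strand and 5 on the opposite one.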

Additional observations from a re-analysis of the deposited data

Results flagged for a closer look

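For 21 members the change from 6 mm to F1 differed between layers of NC hens by the test of the difference in edgeR (adjusted p from 0.000428 to 0.0473). The log2 difference, change in TCs minus change in GCs, was positive for RGS19 (5.15), RGS3 (4.32), RGS22 (4.24), ADCY2 (4.06), ADCY3 (4.00), RGS14 (3.65), PRKAR2B (3.51), RGS12 (2.58), PDE6D (2.52), PDE9A (2.45), PRKAR1B (1.37) and AKAP1 (0.93). It was negative for PDE3B (-4.95), ADCY5 (-4.26), PDE7B (-3.73), RGS4 (-3.10), PDE8A (-2.43), PRKAR2A (-2.32), PRKAR1A (-1.30) and PRKACB (-1.08). ADCY7 had a fitted difference of 7.55, but its counts were 0 in all F1 GC libraries of NC hens, so that this value depends on the fit's prior count and is no bound. With the hen as a block 16 of the 21 held, without ADCY7, PDE9A, PRKAR1A, RGS12 and RGS22, and of 11 fits that left out 1 hen RGS12, RGS22, PDE9A and PRKAR1A were called in 2, 3, 4 and 6. The F1 GC level in these comparisons came from 2 hens, and theca markers averaged 204 and 114 FPKM in the 6 mm GCs of hens 1 and 3 (3.44 in hen 2). With hen 2 as the only 6 mm GC sample, 19 members were called, 14 of them among the 21. Granulosa markers averaged 90.3 FPKM in the F1 TCs of hen 1. Without that TC hen 28 members were called, 19 of them among the 21. The part of theca or granulosa cells in the result was not tested.

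PDE4D moved in opposite directions between 6 mm and F5, with a log2 fold change of 2.79 in the GCs and -1.04 in the TCs of NC hens, each past its own test. The GC call was held in 3 of 6 fits that left out 1 hen and was lost with hen 2 as the only 6 mm GC sample, and the TC call was held in 1 of 6 and lost with the hen as a block. The difference between the layers was not tested for this step.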

How the results depend on the processing

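Counts of members called moved by more than 1.5 times in these settings. The shares of all genes called are not given in this section. With the hen as a replicate block, the layer difference at F1 gave 16 members, and GCs from 6 mm to F1, TCs from 6 mm to F5 and TCs from F5 to F1 gave 0 each; the block moved no other count that far. DESeq2 gave 23 for GCs from 6 mm to F5, and 23, 11 and 16 for TCs from 6 mm to F5, F5 to F1 and 6 mm to F1; among treatments it gave 2 and 20 for bic in F5 and F1 GCs, 3 for bic in F1 TCs, 18, 1 and 15 for mes in GCs at 6 mm, F5 and F1, and 4 each for mes in F5 and F1 TCs. All NC libraries in one fit gave 20 for GCs from 6 mm to F5, and 0 and 2 for TCs from 6 mm to F5 and F5 to F1. A log2 fold change of at least 1.5 left 3, 2 and 5 calls in the TC stage comparisons, in the same order as above. Libraries entered as labelled gave 30 for bic and 6 for mes in F1 GCs.

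Of alternatives added after seeing the data, the stages in mes hens gave 20, 8 and 17 for GCs and 0, 11 and 18 for TCs (6 mm to F5, F5 to F1, 6 mm to F1), and 6 mm NC GC hen 2 alone gave 0 for 6 mm to F5 and 15 for 6 mm to F1. In mes hens 6 log2 fold changes had the other sign: ADCY3 (1.17), RGS14 (0.17) and RGS3 (0.54) in GCs from 6 mm to F1, RGS10 (0.38) and RGS14 (0.72) in GCs from F5 to F1, and RGS1 (0.053) in TCs from 6 mm to F5.

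Without single hens the counts ranged from 8 to 34, 21 to 34 and 11 to 32 for the layers at 6 mm, F5 and F1, from 0 to 20, 20 to 25 and 12 to 28 for GCs, from 0 to 20, 0 to 4 and 4 to 14 for TCs, and from 15 to 28 for the difference between layers; among treatments from 0 to 11 for bic in F1 GCs, 0 to 22 and 0 to 13 for mes in 6 mm and F1 GCs, 0 to 1 for mes in F5 TCs, and 0 to 0 in the others. For single members, 790 values kept direction and call and 406 lost the call when a hen was left out, and under the other alternatives fixed at the start 1078 kept and 171 lost it. The causes were not tested. The F1 GC groups of 2 hens and 1 hen limit the precision.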

Other observations

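Some members not described above also separated treated from NC hens in F1 GCs without a call. AKAP2, an anchor of PKA at the membrane and the actin cytoskeleton, read 36.7 FPKM in the bic hen and 148, 31.4 and 55.4 FPKM in mes hens against 5.36 and 16.8 FPKM in NC hens (log2 difference of mes 2.51, adjusted p = 0.189 by edgeR). PRKAR1B, the type I regulatory subunit of nerve tissue in mammals, read 6.33 and 12.8, 9.88 and 9.21 FPKM against 2.54 and 4.21 FPKM (log2 difference of mes 1.38, adjusted p = 0.153 by edgeR). RGS6 of the R7 class read 11.1 and 4.77, 2.90 and 7.64 FPKM against 0.262 and 0.997 FPKM (log2 difference of mes 2.04, adjusted p = 0.216 by edgeR). In all 3 genes every treated hen lay above both NC hens. They were named for this separation, and the share of all genes that show it was not determined.

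PDE6C, a cone phosphodiesterase in the retina, read 1.22, 1.13 and 0.989 FPKM in 6 mm GCs and 0.0543 and 0.135 FPKM in F1 GCs of NC hens, and 1740 bases of its exons overlap FRA10AC1 on the opposite strand, so that its reads cannot be told apart from those of FRA10AC1 there. PDE4DIP, in the list by its symbol, passed no test in NC hens, with 9.06, 10.3 and 9.50 FPKM in F5 GCs and 6.97 and 7.09 FPKM in F1 GCs.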
